A study of Homo sapiens with 5 samples.

Results

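Cells of the triple-negative breast cancer line MDA-MB-468 that had been treated with afatinib for 9 days were compared with untreated cells of the same line. The treated cells form 1 library of 1139 cells (afatinib, 250 nM, day 9, called D9), and the untreated cells form 2 libraries of 478 and 1063 cells (day 0, called D0 replicates 1 and 2). These 2680 of the 4101 cells in the series and 3 of its 5 libraries were chosen by the library named in each cell name, with every cell and every gene kept. 2 further afatinib libraries, of days 3 and 6 (D3 and D6, also 250 nM), serve here only to place D9 within the course. All cells carried an integrated lentiviral lineage barcode. The paper reports freezing of treated cells and thawing of frozen samples before capture, and does not say separately whether D0 cells were frozen. Whether the D0 replicates were separate cultures is not given in the labels, so p-values measure a spread that may be technical.

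MDA-MB-468 cells carry extra copies of EGFR, the epidermal growth factor receptor, and depend on it for growth. Ligands such as amphiregulin bind EGFR, the receptor pairs with itself or with ERBB2 or ERBB3, and the signal runs through RAS to the kinase ERK and through PI3K to AKT. ERK switches on AP-1 transcription factors and also its own brakes, the dual-specificity phosphatases and the Sprouty proteins, while AKT keeps FOXO transcription factors out of the nucleus. Afatinib binds the kinase domains of EGFR and ERBB2 irreversibly.

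Summed counts were 23638242 in D9 and 22976039 and 28148379 in D0 replicates 1 and 2, and the median cell held 20216 UMIs (unique transcript tags) in D9 and 45658.5 and 25252 in D0. Mitochondrially encoded transcripts took 8.82% of counts in D9 and 7.25% and 7.80% in D0, against 17.2% at D3 and 16% at D6. Ribosomal protein transcripts took 13.99% of counts in D9 and 18.84% and 18.39% in D0. All 8 epithelial markers checked were present, at 6835 summed CPM (counts scaled to library size) in D9 and 8093 and 8025 in D0, and no leukocyte or red cell marker was in the table. D9 and D0 shared 0 cell barcodes.

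Of 12172 genes tested, 542 were higher in D9 than in D0 (4.45%) and 982 were lower (8.07%), called by the quasi-likelihood test of edgeR at an adjusted p (Benjamini-Hochberg) under 0.05 and a change of 1 or more on the log2 scale. The median log2 fold change of all genes was 0.0016. The spread came from the D0 libraries alone (1 residual degree of freedom), after the authors had adjusted the captures towards each other, and the single D9 library was assumed to vary like them, so p-values are optimistic and the fold threshold did most of the selecting: 1534 genes passed it and 1524 of these were called. In summed counts a change in the mix of lineages and a change within cells cannot be told apart.

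Among called genes averaging 20 CPM or more, the largest rise was in CCL5, a chemokine that attracts T cells, with 70.2 CPM in D9 and 4.25 and 1.26 CPM in D0 replicates 1 and 2. It was followed by OASL, an interferon-induced protein, and by BBOX1, the last enzyme of carnitine synthesis, with 70.9 CPM in D9 and 7.41 and 7.25 CPM in D0. The largest fall in that set was in MT1E, a metallothionein, with 6.19 CPM in D9 and 1435 and 1372 CPM in D0. Next came ATP6V0D2, which belongs to the vacuolar proton pump, with 0.812 CPM in D9 and 54.5 and 49.0 CPM in D0. D9 lay outside both D0 values in each of these genes.

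**Figure D1:**
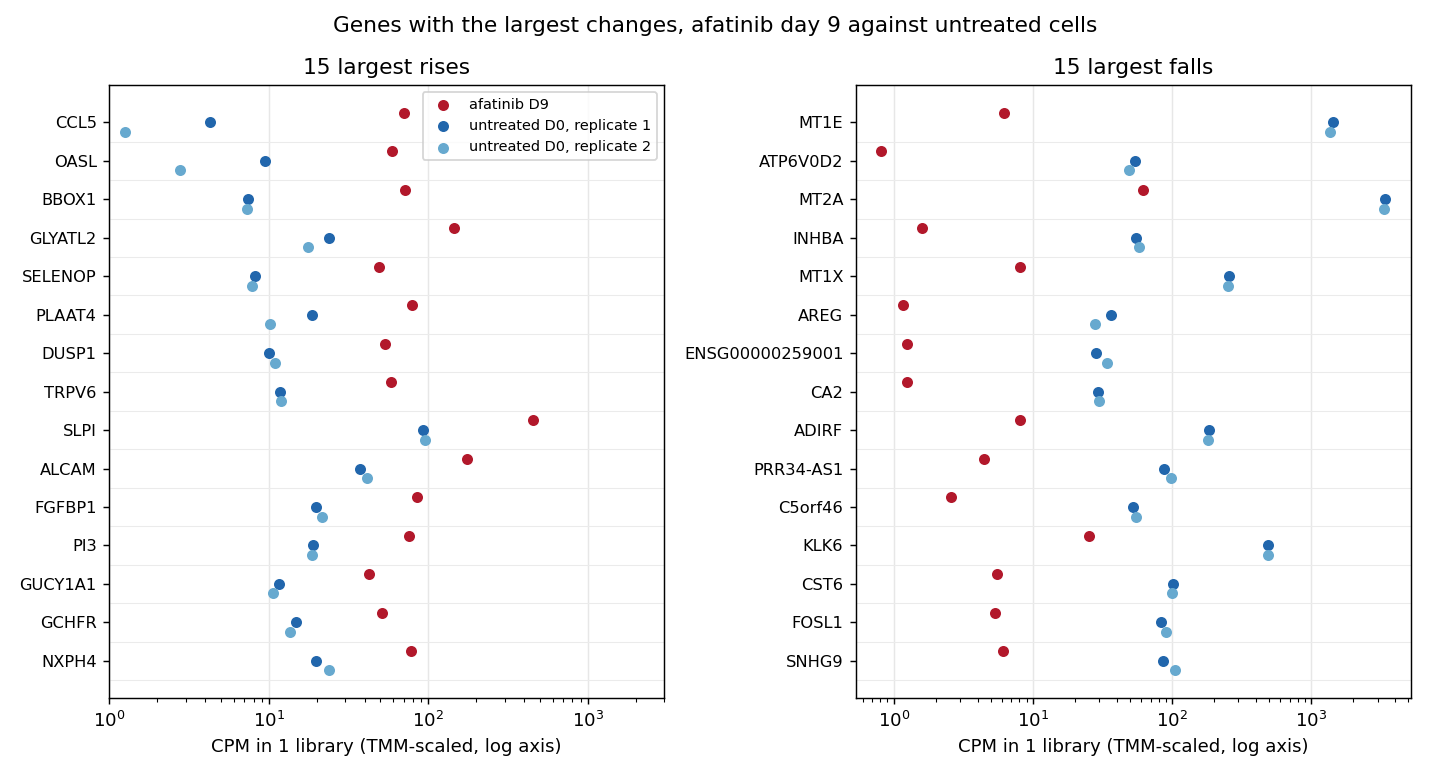
CPM (log axis) of the 15 largest rises (left) and 15 largest falls (right) among called genes that averaged 20 CPM or more; each point is 1 library, red for afatinib D9 and blue for the untreated D0 replicates. The D0 points nearly coincide except for CCL5, OASL and PLAAT4, and MT1E falls to 6.19 CPM in D9, against 1435 and 1372 CPM in D0.

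Short transcripts as a class were lower in D9, and this touches several groups below. Among the 161 tested genes whose canonical transcript (GENCODE) is at most 500 nucleotides (nt) long, the median log2 fold change was -1.82 and 68.3% were called lower, and among the 393 genes of over 500 and up to 750 nt the median was -0.35 and 24.7% were called lower. The 3 classes above 1000 nt had medians of 0.10, -0.03 and 0.01, with 5.77% to 7.35% called lower. Between the D0 replicates the class medians differed by no more than 0.038. The authors had adjusted these captures towards each other, so this value does not measure how far captures vary with length. At D3 and D6 the medians of the shortest class stood at -0.59 and -0.65 against D0, well above the D9 value. For the short genes that lead a group below, the value after a length curve was taken off each library is given too. That offset was added after the data were seen. It left the shortest class at a median of -0.70, so it removed the pattern only in part, and the cause of the pattern was not tested.

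**Figure D2:**
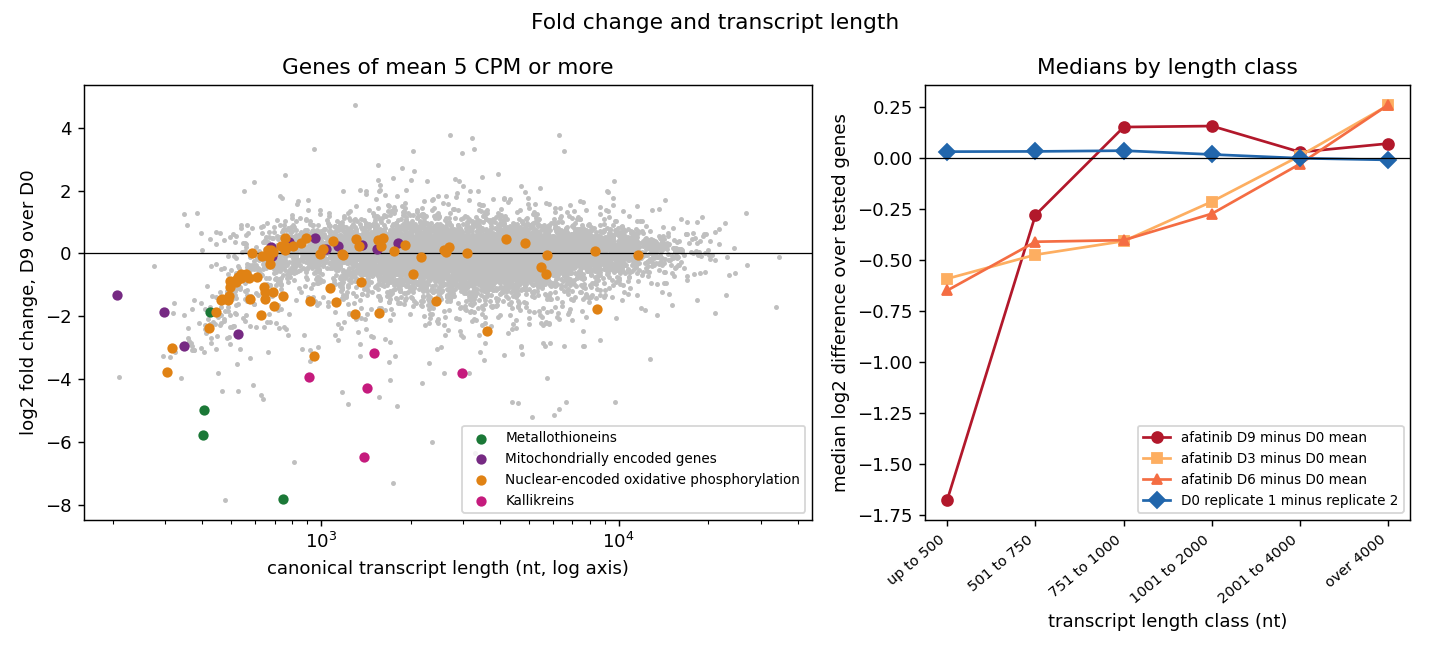
Left, log2 fold change of D9 over D0 (vertical) against canonical transcript length in nt (log axis), 1 point per gene that averaged 5 CPM or more, with 4 gene lists in colour. Right, median log2 difference by length class for each afatinib library against the D0 mean and for D0 replicate 1 minus replicate 2. D9 drops sharply below 500 nt. The D0 replicates, which the authors had adjusted towards each other, stay within 0.038.

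The receptors that afatinib binds changed less than 2-fold in RNA. EGFR had 534 CPM in D9 and 877 and 907 CPM in D0, a log2 fold change of -0.74 ± 0.05 (SE). ERBB2 had 22.3 CPM in D9 and 13.7 and 12.7 CPM in D0 (0.76 ± 0.13). ERBB3, the receptor that recruits PI3K, had 32.8 CPM in D9 and 22 and 21.7 CPM in D0 (0.59 ± 0.13). EGFR was thus lower and ERBB2 and ERBB3 higher than in both D0 libraries, at edgeR adjusted p-values of 2.84e-52, 2.45e-08 and 1.76e-05, and none of the 3 reached the fold threshold. Of 7 EGFR-family ligands tested, 3 were lower (AREG, BTC and EPGN) and 0 higher, with a list median of -1.16. AREG, amphiregulin, had 1.16 CPM in D9 and 36.3 and 27.8 CPM in D0, a log2 fold change of -4.78 ± 0.21. It was seen in 0.439% of D9 cells and in 9.21% and 8.09% of D0 cells, each cell thinned to 5000 UMIs.

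Among the brakes that ERK induces, all called members but 1 fell. Of 14 ERK phosphatases and feedback genes 7 were lower and 1 higher, and the median was -0.98. SPRY2, a Sprouty inhibitor of receptor signalling, had 37.2 CPM in D9 and 117 and 117 CPM in D0 (-1.65 ± 0.12), and SPRY1 had 12.2 CPM in D9 and 48.0 and 51 CPM in D0 (-2.02 ± 0.16). The nuclear ERK phosphatases DUSP5 and DUSP4 fell by 2.09 and 1.75 on the log2 scale. The exception was DUSP1, a phosphatase that acts mainly on the stress kinases p38 and JNK and is also a glucocorticoid target, with 53.5 CPM in D9 and 10.1 and 10.9 CPM in D0 (2.35 ± 0.13). A DUSP1 tag was seen in 21.9% of D9 cells, against 5.02% and 3.86% of D0 cells.

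AP-1 and immediate early factors changed in both directions, with 4 of 19 higher, 3 lower and a median of 0.17. FOSL1, a FOS-family factor that ERK both induces and stabilises, had 5.34 CPM in D9 and 83.2 and 90.0 CPM in D0 (-4.02 ± 0.18), and EGR1 and FOSL2 fell by 1.43 and 1.20. FOS itself had 71.2 CPM in D9 and 26.3 and 27.7 CPM in D0 (1.40 ± 0.13). FOSB rose by 1.73 and the orphan nuclear receptors NR4A2 and NR4A1 by 2.44 and 1.15. The last lost its call in the run without D0 replicate 1 (1.10), where D9 and D0 give no spread of their own. Members of 1 family, FOS and FOSL1, thus moved in opposite directions.

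FOXO targets and regulators of PI3K signalling, taken as 1 list, also went both ways, with 5 of 19 higher, 4 lower and a median of 0.48. TSC22D3, the leucine zipper GILZ, had 41.9 CPM in D9 and 8.19 and 8.84 CPM in D0 (2.30 ± 0.13). SESN3 rose by 1.54 and TRIB3, which is also counted in the stress response list below, by 1.38. The insulin receptor substrate IRS2 fell by 1.33, PIK3R1, the main regulatory subunit of PI3K, by 1.20 and the stress gene GADD45A by 1.49. The 14 glucocorticoid receptor targets, a list that shares TSC22D3, DUSP1 and 2 metallothioneins with others, had 4 higher and 3 lower.

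Most changes of the insulin-like growth factor (IGF) axis were falls, 5 of 15 against 1 rise. IGFBP3, which binds IGFs outside the cell, had 8.97 CPM in D9 and 56.0 and 53.1 CPM in D0 (-2.60 ± 0.17). IRS1, an adaptor of the IGF1 receptor, fell by 2.07, IGFBP5 by 1.89 and IGFBP4 by 1.38. IGFBP2, the binding protein that the study follows, went the other way, with 262 CPM in D9 and 134 and 132 CPM in D0. Its log2 fold change of 0.98 ± 0.08 lay just under the threshold. In the runs without D0 replicate 1 or 2 it was 1.05 and 1.03. As both runs raised it and the D0 values lie close together, this does not show a dependence on 1 replicate. An IGFBP2 tag was found in 65.1% of D9 cells and in 41.8% and 42.1% of D0 cells. The receptor IGF1R, at 16.6 CPM in D9 and 14.5 and 13 CPM in D0, did not pass the test (0.28 ± 0.13, edgeR adjusted p = 0.0703). Of 14 other receptors and ligands that can bypass EGFR, 3 were called lower and 0 higher. These were MET, the receptor of hepatocyte growth factor (-1.86), PDGFB (-1.66) and EPHA2 (-1.44). The list as a whole did not shift, with 7 above 0, 7 below and a median of -0.005. KIT, at 0.97, lay just under the threshold.

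Metallothioneins, small cysteine-rich proteins that bind zinc and copper, lost most of their RNA. All 4 members tested were lower, with a median of -5.37. MT2A had 61.4 CPM in D9 and 3408 and 3345 CPM in D0 (-5.78 ± 0.05), and MT1X had 8.12 CPM in D9 and 256 and 252 CPM in D0 (-4.97 ± 0.12). An MT2A tag was seen in 23.3% of D9 cells, against 99.0% and 99.1% of D0 cells, and an MT1E tag in 3.25%, against 96.9% and 93.0%. The fall was thus seen across the cells and not in a subset alone. These are short transcripts of 401 (MT2A), 404 (MT1X), 425 (MT1F) and 746 nt (MT1E). After the length offset MT1E, MT2A and MT1X stood at -7.61, -4.67 and -3.87, whereas MT1F, at 18.6 CPM in D9 and 65.6 and 69.5 CPM in D0 (-1.86), lay at the median of its length class and lost its call (-0.85). The MT1 genes are close copies of each other, so reads may be split among them in ways the counts do not show.

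Metallothionein genes are switched on by zinc through the transcription factor MTF1, which binds metal response elements with the core TGCACNC or TGCGCNC. The stretch before the start site is shown for MT2A and MT1X, which both hold such cores and both fell. It was searched on both strands over the 250 bases before the RefSeq start (GRCh38.p14), and matches are in capitals.
MT2A, chr16:56608334-56608583, plus strand: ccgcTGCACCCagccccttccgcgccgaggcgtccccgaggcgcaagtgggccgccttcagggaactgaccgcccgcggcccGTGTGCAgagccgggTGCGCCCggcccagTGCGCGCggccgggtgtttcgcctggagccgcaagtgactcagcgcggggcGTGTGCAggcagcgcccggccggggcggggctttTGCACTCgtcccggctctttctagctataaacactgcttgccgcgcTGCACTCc
MT1X, chr16:56682220-56682469, plus strand: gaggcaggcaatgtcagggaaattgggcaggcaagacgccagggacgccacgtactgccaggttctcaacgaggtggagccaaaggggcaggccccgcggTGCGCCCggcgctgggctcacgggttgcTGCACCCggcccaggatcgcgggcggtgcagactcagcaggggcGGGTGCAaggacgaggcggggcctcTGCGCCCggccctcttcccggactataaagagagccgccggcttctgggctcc
The MT2A window held 7 matches, 5 of them on the strand of the gene, and the MT1X window held 4, with 3 on that strand. Of 27305 genes with such a window, 24.724% held at least 1 match and 0.366% at least 4. MT1E and MT1F had no entry. Among tested genes with a window, 30.014% of those called lower and 31.405% of those called higher held a match, against 33.768% of all tested, and these shares were not tested against each other. A match is a run of letters and does not show that MTF1 was bound.

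MTF1 RNA itself was not called. Of 19 genes in the zinc list, which holds the exporters, the importers and MTF1, 3 were lower and 1 higher, with a median of 0.12. The 3 were exporters. SLC30A1, the exporter of the plasma membrane and itself a known MTF1 target, had 2.28 CPM in D9 and 15.9 and 17.1 CPM in D0 (-2.85 ± 0.19). The count of falls was 1 without either D0 replicate. SLC30A2 had 0 UMIs in D9 and 13 and 13 in D0, and SLC30A4 lay near the fold threshold (-1.14). In the motif search above, the windows of SLC30A1, SLC30A2 and SLC30A4 held 1, 3 and 1 matches, that of SLC30A1 on the opposite strand. The uncalled SLC30A6, SLC39A3 and SLC39A6 also held 1 each, and the other zinc list genes with an entry held none. The importer SLC39A8 had 13.7 CPM in D9 and 6.59 and 6.14 CPM in D0 (1.11 ± 0.14). Of 10 iron storage and uptake genes none was called by edgeR or DESeq2 (median -0.19, 8 at an unadjusted edgeR p under 0.05).

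Subunits of the respiratory chain with short transcripts were lower in D9. Of 76 nuclear-encoded subunits of oxidative phosphorylation 26 were lower and 0 higher, with a median of -0.65, and of the 35 members of at most 750 nt 17 were lower, against 9 of the 41 longer ones. ATP5ME, a subunit of ATP synthase with a transcript of 303 nt, had 43 CPM in D9 and 592 and 584 CPM in D0 (-3.77 ± 0.07, or -2.15 with the length offset). With the offset 17 of the 76 were lower and the median was -0.13. Some listed lengths mislead, since the canonical transcript of ATP5F1E (-2.46) is given as 3610 nt. The 13 genes of the mitochondrial genome also split by listed length. Here the listed length is that of the gene and may not be that of its RNA, and the offset values below rest on it. MT-ND3, of 346 nt, had 983 CPM in D9 and 7258 and 7806 CPM in D0 (-2.94 ± 0.03), and MT-ND6, MT-ND4L and MT-ATP8 (525, 297 and 207 nt) also fell. The other 9, of 681 to 1812 nt, ranged from -0.09 to 0.49 and none was called. With the offset MT-ND3 (-1.56) and MT-ND6 (-1.90) remained lower, MT-ND4L was at -0.20 and MT-ATP8 turned to 0.99.

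S100 proteins are calcium-binding proteins of epithelia. Of 13 S100 genes tested 6 were lower, 5 of them of at most 750 nt, and 4 were lower with the offset. S100A2, of 977 nt, had 347 CPM in D9 and 2815 and 2703 CPM in D0 (-2.99 ± 0.04), far below the median of 0.09 for its length class. S100A6, of 434 nt, fell by 2.22, near its class median of -1.82, and stood at -1.25 with the offset. Of 18 histone genes 2 were lower, or 11.1% against 8.07% of all genes, namely H4C3 (405 nt, -3.12, or -2.03 with the offset) and H2BC4 (460 nt, -2.20, or -1.33). Most histone RNAs lack a poly(A) tail, which the 3′ kit needs for capture.

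Kallikreins and several other genes of the stratified, keratinising epithelium fell. All 5 kallikreins tested, serine proteases that shed the outer skin layer and are encoded side by side on chromosome 19, were lower, with a median of -3.92 and transcripts of 915 nt or more among the 4 named. KLK6 had 25.4 CPM in D9 and 491 and 486 CPM in D0 (-4.27 ± 0.08), and KLK10 and KLK8 fell by 3.81 and 3.92. KLK9 was left with 3 UMIs in D9, against 248 in D0 replicate 1. A KLK6 tag was found in 10.5% of D9 cells, against 81.6% and 80.8% of D0 cells. Of 17 keratins 7 were lower and 0 higher, all 17 fold changes were below 0, and the median was -0.71. KRT15, a basal keratin, had 34.4 CPM in D9 and 241 and 245 CPM in D0 (-2.82 ± 0.10), and KRT6B, KRT80 and KRT23 fell by 2.21, 1.67 and 1.51. The basal keratins KRT5 (-0.49) and KRT14 (-0.05) were not called. Of 18 genes of squamous differentiation 4 fell and 1 rose, but 10 lay above 0 and the median was 0.15. CNFN, cornifelin, was among the falls (-3.04). The rise was in ZNF750, a factor that drives late differentiation, with 29.8 CPM in D9 and 7.09 and 7.99 CPM in D0 (1.98 ± 0.13).

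Inhibitors of proteases moved apart, 3 of 16 higher and 3 lower. SLPI, the secreted inhibitor of leukocyte elastase, had 453 CPM in D9 and 91.9 and 95.5 CPM in D0 (2.27 ± 0.07) and was found in 81.8% of D9 cells, against 29.1% and 32.7% of D0 cells. PI3, elafin, a relative of SLPI, had 75.3 CPM in D9 and 18.8 and 18.7 CPM in D0 (2.0 ± 0.13). Both rose although their transcripts are short (596 and 551 nt), and they stood at 2.76 and 2.60 with the length offset. CST6, cystatin E/M, of 592 nt, had 5.53 CPM in D9 and 102 and 99.5 CPM in D0 (-4.18 ± 0.18, or -3.69 with the offset). Of 19 luminal and secretory genes 2 rose (10.5%), SLPI and the factor SPDEF (1.62), and 1 fell (5.26%), AGR2 (-3.46). Among 27 epithelial adhesion genes ALCAM, an adhesion molecule of the immunoglobulin family, rose, with 173 CPM in D9 and 37.5 and 41.3 CPM in D0 (2.14 ± 0.11), and ITGB4 and CLDN1 fell by 1.44 and 1.15. The adhesion genes thus had 3.70% higher and 7.41% lower. Of all genes 4.45% were higher and 8.07% lower.

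**Figure D3:**
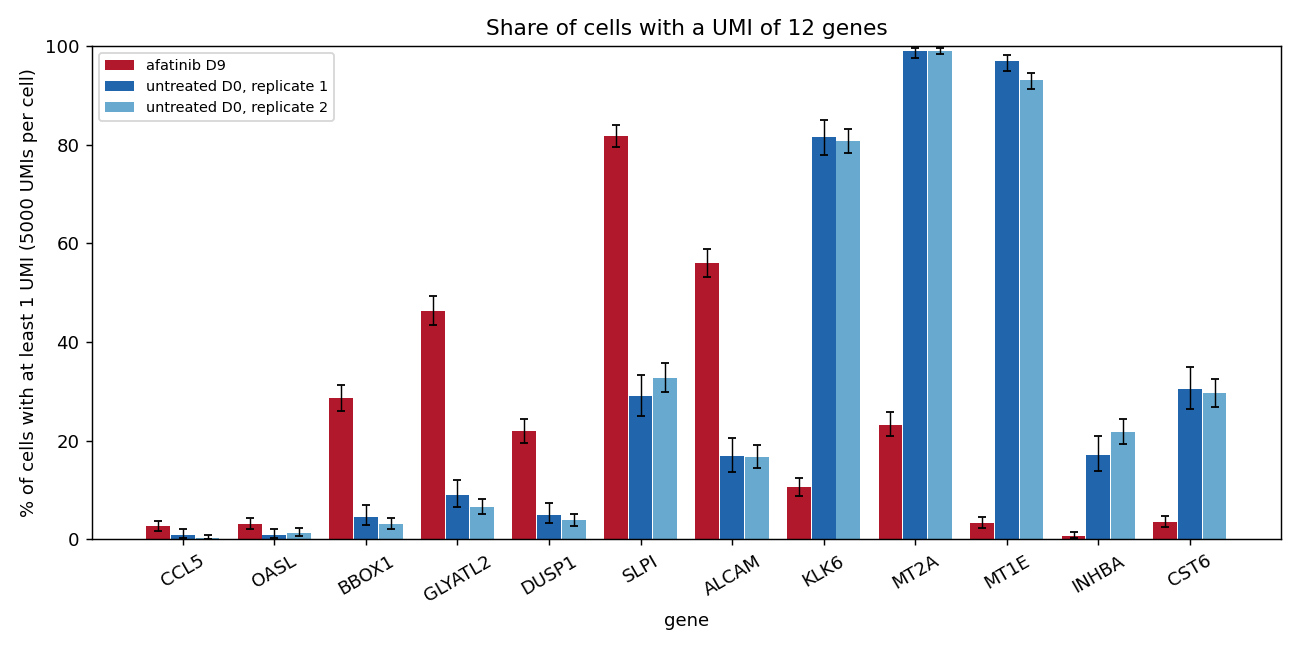
Percent of cells with at least 1 UMI of a gene after every cell was thinned to 5000 UMIs (vertical) for 12 genes, afatinib D9 in red and untreated D0 replicates 1 and 2 in blue, with exact binomial 95% intervals. MT2A and KLK6 are found in most D0 cells and few D9 cells, SLPI the reverse, and CCL5 and OASL stay under 5% of cells in every library.

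The intervals of these shares cover counting error only, and as all cells are of 1 line no cell type that lacks a gene gives a background share.

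Secreted signals and regulators of the activin, TGF-beta, BMP and Wnt families fell in several members. Of 17 activin, TGF-beta and BMP genes 7 were lower and 3 higher, with a median of -0.86. INHBA, the subunit of activin A, had 1.59 CPM in D9 and 55.1 and 57.9 CPM in D0 (-5.15 ± 0.22). FST, follistatin, which binds and blocks activin, fell with it, with 3.09 CPM in D9 and 33.2 and 35.4 CPM in D0 (-3.47 ± 0.18), and BMP2 and INHBB fell by 3.40 and 2.16. The rises were in BAMBI, a decoy receptor (1.5), and in ID4 and ID2, inhibitors of helix-loop-helix factors (1.17 and 1.11). Of 12 Wnt genes 4 were lower and 1 higher. DKK1, a secreted Wnt antagonist, had 0.812 CPM in D9 and 26.8 and 20.5 CPM in D0 (-4.85 ± 0.22), WNT5A, WNT7B and WNT10A fell by 2.21, 2.03 and 1.53, and LGR4, a receptor that strengthens Wnt signals, rose by 1.58.

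Targets of YAP and TEAD, which respond to adhesion and cell shape, had 5 of 19 lower, 0 higher and a median of -0.55. CCN2 had 69.1 CPM in D9 and 215 and 226 CPM in D0 (-1.67 ± 0.09), and NT5E (CD73) fell by 2.85 and NUAK2 by 2.59. Of 20 matrix and mesenchymal genes 7 fell, with THBS1, thrombospondin (-2.03), LOXL2, a collagen cross-linking enzyme (-2.30), and ITGA2 (-1.36) among them, and 1 rose, MMP14 (1.01), whose call ended without D0 replicate 1 (0.77). Of 13 Notch genes 4 fell and 1 rose, the feedback inhibitor NRARP (1.84).

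**Figure D4:**
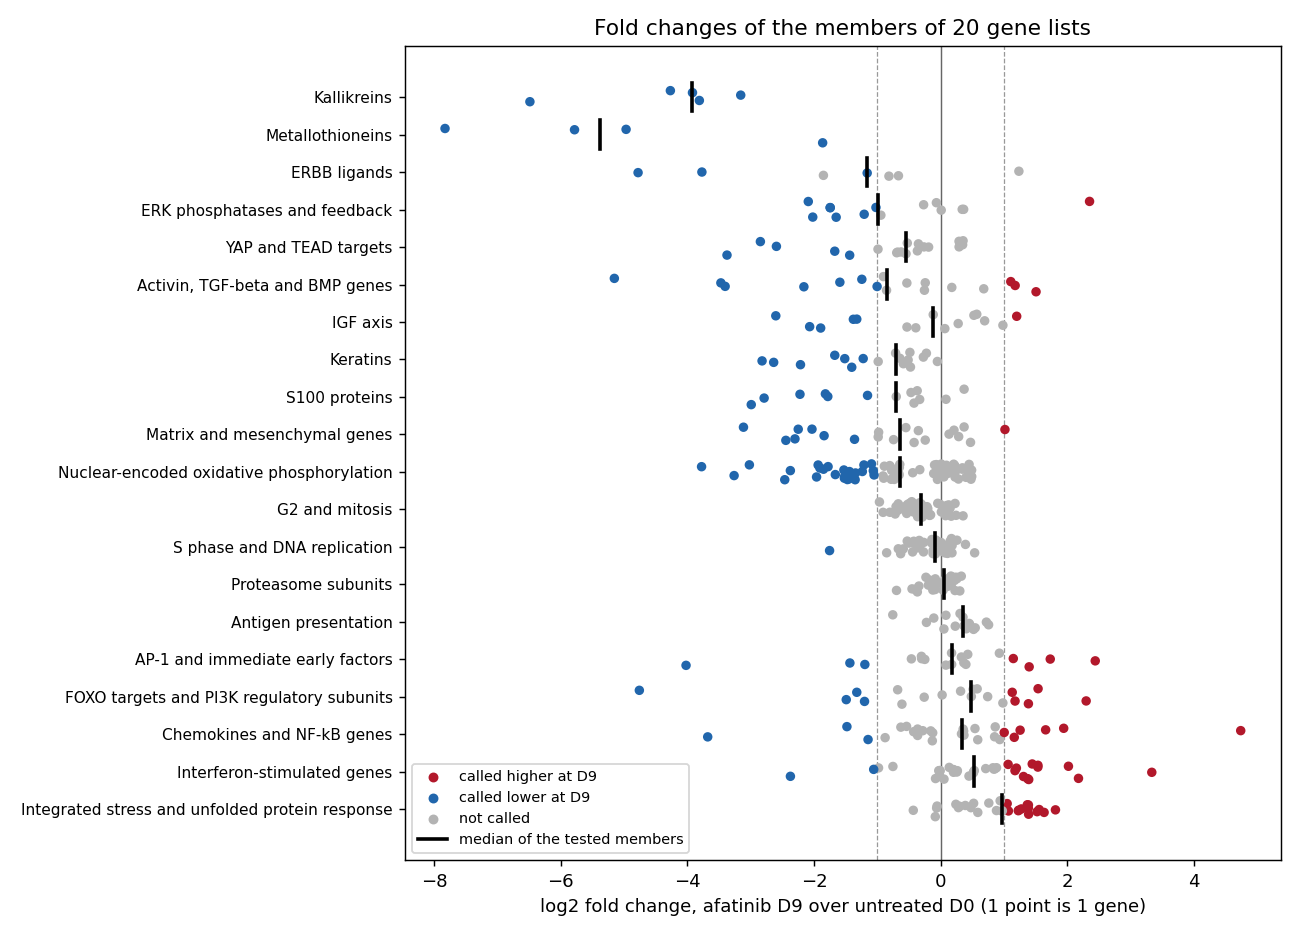
Log2 fold change of D9 over D0 (horizontal) of every tested member of 20 gene lists; red points are called higher, blue points lower, grey points not called, and the black bar is the list median. Kallikreins and metallothioneins lie wholly below 0, and the integrated stress list has 13 red points and no blue one.

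Many genes that cells switch on through ATF4 and the other arms of the integrated stress and unfolded protein responses when amino acids or folding capacity run short rose in D9. Of 29 tested 13 were higher and 0 lower, and 25 lay above 0, with a median of 0.96. PHGDH, the entry enzyme of serine synthesis, had 841 CPM in D9 and 294 and 292 CPM in D0 (1.52 ± 0.05). HERPUD1, of the degradation of misfolded proteins, had 167 CPM in D9 and 49.1 and 45.9 CPM in D0 (1.81 ± 0.11) and was found in 58.5% of D9 cells, against 22.6% and 18.3% of D0 cells. STC2 rose by 1.63 and SESN2 by 1.55, and ASNS, PSAT1, SHMT2, CHAC1 and DDIT3 were among the rest. Their transcripts were all over 750 nt, and 14 were higher with the length offset. Of 29 heat shock proteins and chaperones 3 were lower and 0 higher, or 10.3% lower against 8.07% of all genes, with 26 below 0 and a median of -0.49. HSPB1, the small heat shock protein HSP27, had 38.5 CPM in D9 and 227 and 240 CPM in D0 (-2.60 ± 0.10), and CHORDC1 fell by 1.52. HSPE1, the mitochondrial co-chaperonin (557 nt, -1.21), lost its call with the offset (-0.63). Of 20 aminoacyl-tRNA synthetases WARS1 alone was called (1.12).

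Enzymes that detoxify carbonyls and handle steroids changed in a few members. AKR1C2 and AKR1C1, aldo-keto reductases, had 33.9 and 32.9 CPM in D9, against 3.06 and 2.26 CPM and 3.48 and 3.44 CPM in D0. Their log2 fold changes were 3.69 ± 0.15 and 3.25 ± 0.14, and as near-identical paralogs they may share reads. ALDH2 had 126 CPM in D9 and 35.7 and 38.6 CPM in D0 (1.76 ± 0.12), whereas AKR1B1 and ALDH1A3 fell by 2.05 and 1.66, which makes 3 of 18 higher and 3 lower. Of 25 antioxidant genes 3 rose: SELENOP, the selenium carrier (2.62), SLC7A11, the cystine importer (2.32), and GSTM3 (1.08). TXN, thioredoxin, with 420 CPM in D9 and 862 and 825 CPM in D0, lay at the threshold (-1.004) and was not called with the length offset (-0.77) or without D0 replicate 1 (-0.91) or 2 (-0.97). Of 16 ABC transporters 3 fell, among them ABCC3 (-2.18), and 0 rose.

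Of 27 genes of carnitine and fatty acid use 2 rose, BBOX1 (3.27 ± 0.14) and ACADS (1.11), and 0 fell. The rises were 7.41% of the list, against 4.45% of all genes. BBOX1 was found in 28.6% of D9 cells and in 4.60% and 3.10% of D0 cells. GLYATL2, which joins glycine to long-chain fatty acids, had 146 CPM in D9 and 23.6 and 17.6 CPM in D0 (2.83 ± 0.13) and was found in 46.3% of D9 cells, against 9.00% and 6.59% of D0 cells. Among 34 SREBP targets ELOVL6, which lengthens fatty acids, fell (-1.20). Of 31 hypoxia and glycolysis genes 5 fell (16.1%) and 2 rose (6.45%), against 8.07% and 4.45% of all genes. No glycolytic enzyme of the list was called. The falls were led by the lactate exporter SLC16A3 (2.32 CPM in D9, 30.6 and 34.6 CPM in D0, -3.81 ± 0.19) and by ADM (-2.66), while VEGFA rose by 1.39. CA2, a carbonic anhydrase, had 1.24 CPM in D9 and 29.5 and 29.7 CPM in D0 (-4.58 ± 0.21). ATP6V0D2 was the 1 called gene of 48 lysosomal and proton pump genes.

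CCL5 rose with several interferon-stimulated genes, and CCL5 and OASL were found in few cells. Of 37 interferon-stimulated genes 12 were higher and 2 lower, with a median of 0.52. OASL had 59.2 CPM in D9 and 9.42 and 2.77 CPM in D0 (3.33 ± 0.14), ISG20 rose by 2.17 and IFI44 by 1.53, and IFI27 fell by 2.37. IFI44 and IFI27 were not called by DESeq2. CCL5 was found in 30 of 1139 D9 cells (2.63%, exact 95% interval 1.78 to 3.74), against 0.837% and 0.282% of D0 cells, and OASL in 3.07% of D9 cells. The genes shared cells: of the 30 D9 cells with CCL5, 76.7% also held OASL, 66.7% IFI44 and 43.3% IFIT3, against 1.08%, 2.34% and 1.35% of the 1109 other D9 cells. Genes outside the interferon list were also found more often in those 30 cells, KLK6 in 33.3% against 9.92%, BBOX1 in 43.3% against 28.2% and SLPI in 93.3% against 81.5%. The D0 replicates also differed, so that CCL5 rose by 4.02 over replicate 1 and 5.71 over replicate 2, OASL by 2.64 and 4.38, IFI44 by 1.05 and 2.10, and IFIT3 by 0.67 and 2.89, while IFI27 stood at -2.95 against replicate 1 and -1.37 against replicate 2. The list had 7 higher without D0 replicate 2 and 7 by DESeq2. Among cells scored G1 it had 3 higher and 5 lower, and its median turned to -0.08. IFIT3 was not called without D0 replicate 2 (0.73) or by DESeq2 (adjusted p = 0.543). Of 28 chemokine and NF-kB genes 6 were higher and 3 lower, but 1 and 1 without D0 replicate 2, and 5 and 0 without D0 replicate 1. CX3CL1 (1.002), at 22.2 CPM in D9 and 11.3 and 10.9 CPM in D0, lay at the threshold and was not called without D0 replicate 2. None of 16 antigen presentation genes was called by edgeR or DESeq2 (median 0.36), and 12 had an unadjusted edgeR p under 0.05, 11 of them higher.

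Several other large changes fall in no list. PLAAT4, a phospholipase induced by retinoids, had 79.3 CPM in D9 and 18.5 and 10.2 CPM in D0 (2.48 ± 0.14), or 2.09 over replicate 1 and 2.95 over replicate 2. TRPV6, an epithelial calcium channel, had 58.6 CPM in D9 and 11.7 and 11.9 CPM in D0 (2.32 ± 0.13). FGFBP1, which carries fibroblast growth factors, rose by 2.03, GUCY1A1, a subunit of the nitric oxide receptor, by 1.95, GCHFR, which regulates the synthesis of tetrahydrobiopterin, by 1.84 and NXPH4, a neurexophilin, by 1.83. Among the falls ADIRF had 8.08 CPM in D9 and 185 and 181 CPM in D0 (-4.50 ± 0.14), and C5orf46 fell by 4.37. The noncoding PRR34-AS1 (464 nt) and SNHG9 (339 nt) were at -4.37 and -3.96, and an unnamed gene on chromosome 14 (ENSG00000259001) at -4.65. These short RNAs lie far below their class medians, and all 3 and ADIRF stayed called with the length offset. Of 901 long noncoding RNAs 17.8% were called lower and 10.4% higher, against 7.29% and 3.95% of 11235 protein-coding genes.

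Few cell-cycle genes were called. None of 50 G2 and mitosis genes was called by edgeR or DESeq2, though 39 lay below 0 (median -0.32) and 37 had an unadjusted edgeR p under 0.05, 34 of them lower. AURKA, a mitotic kinase, had 54.6 CPM in D9 and 103.5 and 101.5 CPM in D0 (-0.91 ± 0.12). Of 48 S phase genes 1 was lower, the clamp loader subunit RFC3 (-1.75), of 24 regulators of S phase entry 1 was higher, the CDK4 and CDK6 inhibitor CDKN2C (1.25), and of 36 ribosome biogenesis and MYC targets 2 were lower, PA2G4 (-1.24) and WDR43 (-1.11), with 33 below 0. By phase score of cells thinned to 5000 UMIs, 35.0% of D9 cells were in G1 (exact 95% interval 32.3 to 37.9) and 35.8% in G2 or M (33.0 to 38.7), against 26.2% and 26.5% of D0 cells in G1 and 47.3% and 45.3% in G2 or M. Without thinning the G1 shares were 32.7% in D9 and 20.7% and 21.7% in D0. With 1 treated library no test of these shares was made. Among cells scored G1 alone, which the scores of such genes themselves picked out, 40 of the 50 G2 and mitosis genes were called lower in D9. None of 31 proteasome subunits or 16 BCL2 family genes was called by edgeR or DESeq2 (18 and 10 at an unadjusted edgeR p under 0.05). Of 21 p53 targets 2 rose (9.52%), SESN2 and SAT1 (1.08), and PLK2 fell (-1.16, 4.76%). These shares compare with 4.45% and 8.07% of all genes.

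D9 was next compared with D3 and D6 together, in a fit of all 5 libraries with D0 as a group of its own and CPM scaled over those 5. D3 and D6 are different days that stood in as replicates of each other, and D9 had no replicate. The spread therefore came from the differences between D3 and D6 and between the D0 libraries, and D9 was assumed to vary like them. Of 12180 genes tested, 50 were higher in D9 (0.411%) and 378 lower (3.1%), by the same thresholds. Of the 542 genes higher in D9 than in D0, 22 were also higher in D9 than in D3 and D6, and of the 978 tested falls 266 were also lower. D9 enters both comparisons, so these overlaps are counts and no support for each other. D3 and D6 had more mitochondrial RNA (17.2% and 16%, against 8.82% in D9), and the number of rises changed with a limit on it: among cells under 10% mitochondrial counts 23 were higher, 7 of them among the 50.

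Few genes were higher still at D9, and the medians against D3 and D6 also varied with transcript length, as given below. CCL5 had 74.1 CPM in D9, against 9.79 and 19.4 CPM at D3 and D6, 2.34 ± 0.35 on the log2 scale (edgeR adjusted p = 0.000381). BBOX1 had 74.9 CPM in D9, against 17.0 and 30.9 CPM at D3 and D6 (1.64 ± 0.22), and GLYATL2 had 154 CPM, against 41.7 and 71.2 CPM (1.44 ± 0.22). GCHFR, the regulator of tetrahydrobiopterin synthesis, rose by 1.33. C3orf14 (1.26), GSTM3 (1.22), GON7 (1.07) and NDUFB5 (1.06), the last a subunit of respiratory complex I, were also higher than at D3 and D6, and those 4 and GCHFR lost the call among cells under 10% mitochondrial counts. SLPI, ALCAM, TRPV6 and SELENOP, all called against D0, were not called here, with log2 differences of 0.86, 0.05, 0.27 and 0.22.

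**Figure D5:**
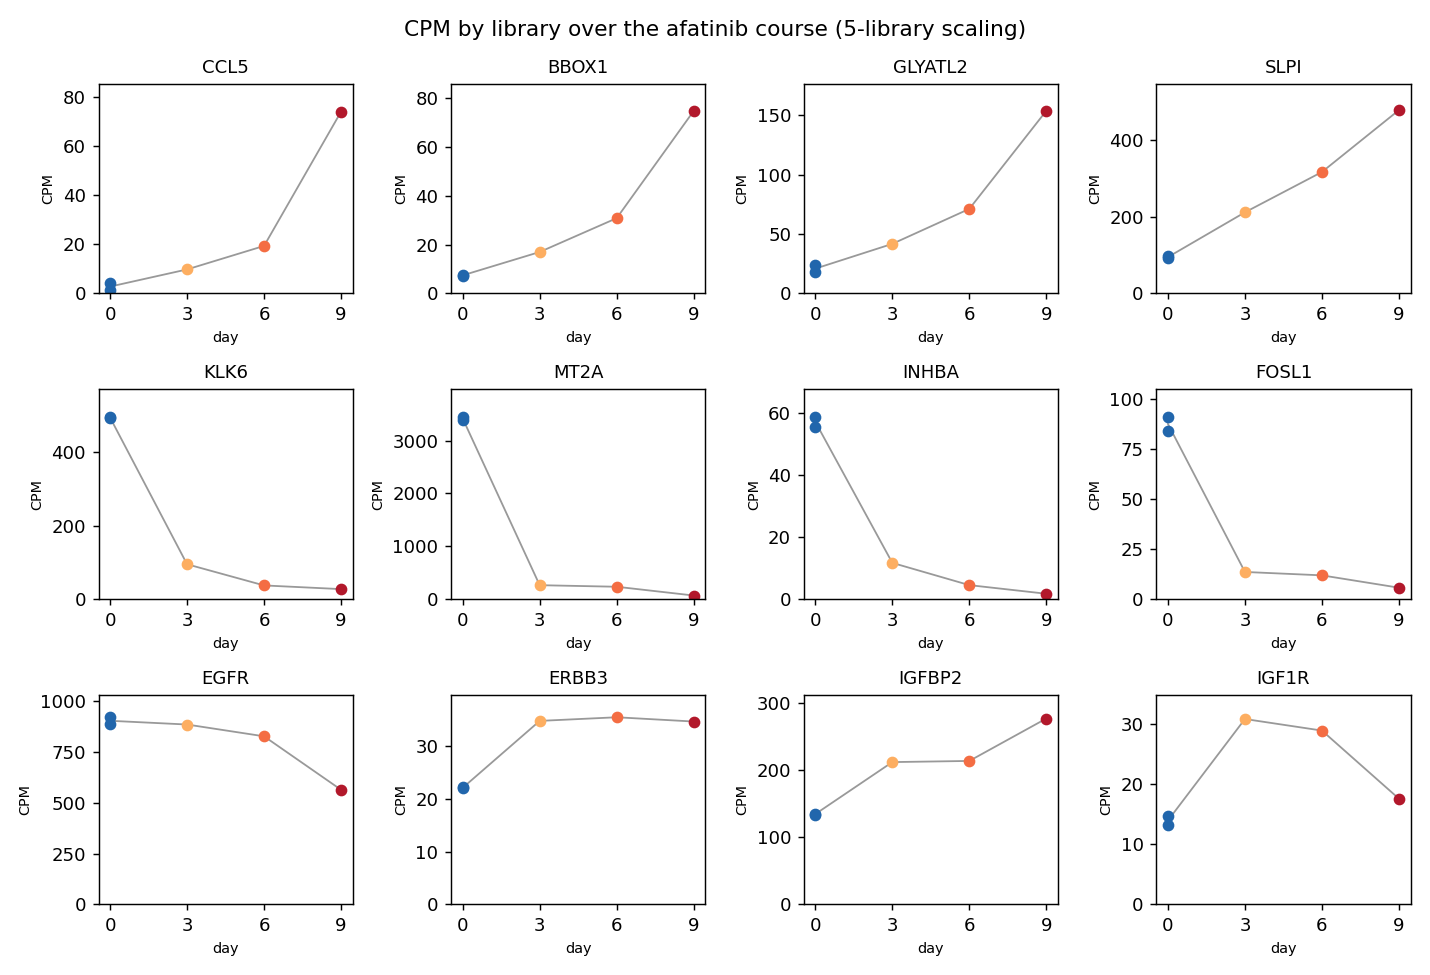
CPM (5-library scaling) of 12 genes by day, 1 point per library with both untreated replicates at day 0 and a line through the day means. CCL5, BBOX1 and GLYATL2 climb most between days 6 and 9, KLK6, MT2A, INHBA and FOSL1 are lower at day 3 and lowest at day 9, EGFR is lowest at day 9, and IGF1R returns towards its day 0 level.

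Some of the falls were larger at D9 than at D3 and D6. MT2A had 64.9 CPM in D9, against 261 and 231 CPM at D3 and D6 (-1.92 ± 0.11), INHBA had 1.67 CPM, against 11.7 and 4.47 CPM (-2.26), and KLK6 had 26.8 CPM, against 94.6 and 36.9 CPM (-1.29). FOSL1 (-1.17), ADIRF (-1.87) and ATP6V0D2 (-2.31) also went lower. In these lists 4 of 5 kallikreins and 3 of 4 metallothioneins were lower than at D3 and D6, against 0 of the 17 keratins. CST6 (0.01), AREG (-0.98) and KRT15 (-0.20) were not called here. Large falls against D3 and D6 also came in short mitochondrial genes: MT-ND3 had 1038 CPM in D9, against 14896 and 13067 CPM at D3 and D6 (-3.75 ± 0.11), and MT-ND6 and MT-ND4L fell by 2.90 and 2.45. The shortest length class as a whole had a median of -0.93, with 48.1% called lower. Among longer classes the median was 0.56 for genes of over 750 and up to 1000 nt, 0.36 for the next class and -0.23 for the longest. The remaining classes lay at 0.01 and 0.004. Against D0, genes of over 750 and up to 1000 nt stood at -0.41 and -0.40 at D3 and D6, and the longest class at 0.26 and 0.26. With the length offset 17 of the 50 rises and 275 of the 378 falls were kept. BRD9, a subunit of a chromatin remodelling complex, had 17.0 CPM in D9 and 98.9 and 67.6 CPM at D3 and D6 (-2.29 ± 0.22). EGFR had 564 CPM in D9, against 885 and 827 CPM at D3 and D6 (-0.60), and ERBB3 (-0.02), ERBB2 (-0.04), IGFBP2 (0.38) and IGF1R (-0.76) were not called either.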

How the data were processed

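RNA of single cells was counted with a 3′ Chromium kit. Cell Ranger 6.1.2 and the build GRCh38 are named in the submitters' processing notes. The authors dropped cells with few UMIs, mitochondrial outliers and doublets, ran ComBat-seq to adjust for the 2 captures of D0 and removed low genes, and they deposited the result in the form of expected counts per gene and cell (12474 genes, all values whole numbers). The other deposited columns hold cell names and gene names, not measurements. A pattern of missing values, read here as a trace of the adjustment, was shared by D9 and D0 replicate 1 (4385 of 7967 testable genes). D9 did not share it with replicate 2 (0 of 6975). No label assigns D9 to a batch. That the comparison without D0 replicate 2 is within 1 adjustment batch is thus an inference from this pattern.

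Counts were summed per library. The main test was edgeR 4.0.16 (TMM, filterByExpr, quasi-likelihood, Benjamini-Hochberg over all genes tested) on D9 and both D0 libraries, with a common coefficient of variation of 0.056. D9 against D3 and D6 used the 5 libraries in 3 groups (2 residual degrees of freedom). Standard errors are the log2 fold change over the square root of F. Cells were thinned to 5000 UMIs for shares, with exact binomial intervals, and phases were scored with scanpy 1.11.5. Named were the 15 largest rises and falls with a mean of at least 20 CPM, up to 4 called members each way of each of 46 lists (mean at least 5 CPM), 5 fixed genes, and 8 each way against D3 and D6. Members given by symbol only are counted from lists. A few members that the rule named are not reported here. Members and lists were chosen with earlier results of these data known. The choice of test assumed UMI counts without adjustment. Names came from the files, and positions and lengths from GENCODE 44 (the files use GENCODE 32), which matched 12449 genes. Promoters came from RefSeq on GRCh38.p14. The fits were tested on simulated data. Alternatives were RLE factors, DESeq2 1.42.0, limma-voom 3.58.1, no filter, other gene and cell sets, leaving out libraries and a length offset (loess span 0.2).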

Additional observations from a re-analysis of the deposited data

Results flagged for a closer look

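These genes were singled out because the difference between D9 and the earlier afatinib days D3 and D6, which share their untreated reference, passed its own test (edgeR, adjusted p under 0.05 and a log2 difference of at least 1 in size). In that test D3 and D6 stood in as replicates of each other and D9 had none. Higher in D9 than in D3 and D6 were CCL5 by 2.34, BBOX1 by 1.64, GLYATL2 by 1.44, GCHFR by 1.33, C3orf14 by 1.26, GSTM3 by 1.22, GON7 by 1.07 and NDUFB5 by 1.06 on the log2 scale. C3orf14, GON7 and NDUFB5 were not called higher in D9 than in D0, though each lay above both D0 values. In the 5-library scaling GON7 had 80.0 CPM in D9, 40.5 and 35.7 at D3 and D6, and 45.2 and 49.8 in D0. NDUFB5 had 141 CPM in D9, 68.2 and 66.8 at D3 and D6, and 100 and 98.2 in D0. C3orf14 had 78.3 CPM in D9, 34.7 and 30.5 at D3 and D6, and 69.4 and 68.0 in D0.

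Lower in D9 than in D3 and D6 were 2 unnamed genes, ENSG00000255823 (-4.01) and ENSG00000269028 (-2.58), and the mitochondrial MT-ND3 (-3.75), MT-ND6 (-2.90) and MT-ND4L (-2.45). Further falls were in ATP6V0D2 (-2.31), BRD9 (-2.29), PRR34-AS1 (-2.26), INHBA (-2.26), SNHG9 (-2.07), MT2A (-1.92), ADIRF (-1.87), C5orf46 (-1.85), MT1E (-1.60), MT1X (-1.45), KLK6 (-1.29), FOSL1 (-1.17) and CA2 (-1.05), and in the unnamed ENSG00000259001 (-3.18). Several of these are short transcripts, whose class as a whole was lower in D9.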

How the results depend on the processing

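No paired analysis was possible because only D0 had a replicate number above 1 and each treated day had 1 library. Of D9 against D0, the counts of genes higher (424 to 598) and lower (742 to 1078) stayed within 1.5 times of 542 and 982 under every alternative run. Without either D0 replicate, 518 to 565 were higher and 742 to 800 lower. With 1 D0 library left, D9 and D0 give no spread of their own, so these runs differ from the main fit in more than the replicate. The median of the ERBB receptors was 0.656 and 0.642 without replicates 1 and 2. It was 0.649 in the fit of all 5 libraries and 0.590 in the main fit. A call gained or lost there thus need not depend on that replicate. With the length offset 595 were higher and 880 lower, and 514 and 843 of the 542 and 982 were kept. With DESeq2 423 of the 542 rises and 870 of the 982 falls were kept. 2 named genes changed sign, IFIT3 in G1 cells (-1.17) and MT-ATP8 with the length offset (0.99).

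Of D9 against D3 and D6, 50 rises became 23 among cells under the mitochondrial limit, 117 without D3 and 140 without D6. Leaving out a library gave 45 to 140 rises and 327 to 478 falls. With the length offset 40 were higher, 17 of them among the 50, and 365 lower, 275 of them among the 378. The cause was not tested.

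Phase shares moved without thinning. In D9 34.6% of cells were then in S phase and 32.7% in G2 or M, and in D0 replicates 1 and 2 20.7% and 21.7% were in G1 and 34.7% and 33.8% in S phase. Genes under about 5 CPM rest on few counts in each library, and shares under 1% on few cells.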
